A study of Homo sapiens with 59 samples.

Results

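The genes described here are 9 genes of extracellular matrix breakdown and plasminogen activation, out of 60675 genes in the deposited count table. They are the metalloproteinases MMP1, MMP3 and MMP10, the metalloproteinase inhibitors TIMP1 and TIMP3, the plasminogen activators PLAU and PLAT, the urokinase receptor PLAUR and the activator inhibitor SERPINB2. They were picked by name because levels in these same libraries were known to differ, so their values are given as a description. Their calls in the fit across all genes are counted once, beside the shares of all genes, and support nothing. Of the 9 genes, 8 passed the filter on low counts, and MMP10 did not.

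Matrix metalloproteinases are secreted or membrane-bound zinc enzymes that cut collagens, proteoglycans and laminins, and most are made as inactive precursors. TIMP proteins bind their active sites and block them. Urokinase (PLAU), held at the cell surface by its receptor PLAUR, and tissue-type activator (PLAT) convert plasminogen to plasmin. Plasmin degrades fibrin and can activate metalloproteinase precursors, including that of MMP3. PAI-2 (SERPINB2) inhibits both activators. The liver is the main source of circulating plasminogen, whereas MMP1, MMP3 and MMP10 are typically made by stimulated fibroblasts, epithelial cells and macrophages.

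All libraries were poly(A) RNA libraries of HepG2 cells, an established line from a human hepatocellular carcinoma, collected 24 h after treatment, and there were 59 libraries in 20 groups. The treated groups received a plant extract, a water extract by its title, or wortmannin. Fresh ginger (Zingiberis Rhizoma Recens), dried ginger (Zingiberis Rhizoma), Scutellariae Radix, Pinelliae Tuber and Zizyphi Fructus were given at 20, 100 or 500 ug/mL. Coptidis Rhizoma was given at 8.4, 42 or 210 ug/mL. Wortmannin, an inhibitor of phosphoinositide 3-kinases used as positive control, was given at 10 uM. All 59 titles carry the label BatchA. The reference was a DMSO vehicle group, labelled 0.1% in the samples and 2% in the series text. The labels of the treated groups give no DMSO content, so DMSO and treatment cannot be told apart if those cells received none. Each group held 3 libraries except Pinelliae Tuber 20 ug/mL with 2. The series text sets the top dose at the IC20 where that was under 500 ug/mL, without saying which assay gave it. The extracts were mixtures, and all libraries came from a single tumour line, which limits the groups as models of liver.

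Total counts ran from 21582593 to 31392071 per library with a median of 25834177. Mean chi-square per gene between replicates, near 1 for sampling noise alone, was 1.93 to 32.4, and every pair differed by more than that noise. The labels do not say that replicates were separate cultures, so their spread may be technical. In the Zizyphi Fructus 20 ug/mL group replicate 1 stood apart, as did replicate 3 with Pinelliae Tuber 100 ug/mL and replicate 1 with dried ginger 500 ug/mL. By less, so did replicate 3 with Coptidis Rhizoma 8.4 ug/mL (8.48 and 12, against 3.42 for the other pair). The same holds for replicate 1 with Scutellariae Radix 20 ug/mL (7.67 and 7.13, against 2.82). Neither is among the 3 libraries left out as an alternative. A number in the titles sets vehicle and wortmannin apart from the extracts, which share theirs in pairs. If it marks separate runs, run and extract cannot be told apart in comparisons with vehicle, whereas the doses of each extract have the same number. Hepatocyte markers (8 of 8 genes tested, among them ALB, AFP and APOB) were present in all libraries, and markers of other cell types were mixed. ERG had no count and PTPRC, MARCO, DCN and KDR had a count in 1 library each. Others had a count in all 59 libraries. On the macrophage list these were LYZ and CD68, reaching 2670 and 86.5 CPM. On the fibroblast list they were ACTA2, PDGFRB and COL1A1, reaching 85.2, 20.7 and 1.45 CPM, and on the endothelial list PECAM1, VWF and CDH5, reaching 4.51, 0.957 and 0.711 CPM.

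The 3 metalloproteinase genes lie side by side on the long arm of chromosome 11, all on the minus strand (GRCh38, GENCODE 29). MMP10 spans chr11:102770503-102780628, MMP1 chr11:102789920-102798160 and MMP3 chr11:102835801-102843803, together 73.3 kb within a cluster of 9 metalloproteinase genes from MMP7 to MMP13. The pseudogene WTAPP1 runs across all 3 on the opposite strand, and the strand setting of the counting is not given in the sources used here, so reads of the pseudogene and of these genes may not be separated. MMP3 and MMP10 transcripts shared 125 words of 31 bases but none of 100 bases, and MMP1 shared none of 31 bases with either, so a small part of the reads of MMP3 and MMP10 could be assigned to both. TIMP1 lies at chrX:47582313-47586789 (plus) inside SYN1, and TIMP3 at chr22:32801701-32863043 (plus) inside SYN3, each opposite to the host. PLAU lies at chr10:73909177-73917497 (plus) opposite C10orf55, PLAUR at chr19:43646095-43670547 (minus) and SERPINB2 at chr18:63871692-63903890 (plus), where it overlaps SERPINB10 on the same strand.

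AP-1, a dimer of FOS and JUN proteins, binds TGAGTCA and close variants and is known to act through such letters in the promoters of several genes of this system. RefSeq promoter sequences (GRCh38.p14, 250 bases before the start) were matched for 6 of the 9 genes in 7 windows. MMP1, MMP3 and PLAT had no window in the source used here and were not searched. All 250 bases of the PLAUR window and of both PLAU windows, and 123 of those of TIMP1, lie in GENCODE 29 exons. The PLAUR, TIMP1 and SERPINB2 stretches printed here, and the longer SERPINB2 window below, fall inside the gene spans given above. Both strands were searched for TGANTCA and for TGAGTAA, letters chosen with the sequences in view, and no match to one is a match to the other. TGANTCA was found for MMP10, PLAUR and SERPINB2, and TGAGTAA for SERPINB2 and TIMP1. Of the TGANTCA matches, that of PLAUR was TGAGTCA, and those of MMP10 and SERPINB2 were TGAATCA. Neither was found in the windows of PLAU and TIMP3. TGANTCA stands in 6.59% of 34943 promoter windows of the same length, TGAGTCA in 4.22%, TGAGTAA in 2.21% and either in 8.55%. The 4 stretches are shown because they hold these letters, in capitals, in genes that were highest with Coptidis Rhizoma 210 ug/mL. They lie at chr11:102780678-102780706 (minus), chr19:43670338-43670366 (minus), chr18:63887592-63887620 (plus) and chrX:47582324-47582352 (plus), with the capitals beginning 67, 186, 102 and 101 bases before the start.
MMP10: aaacacatgcaTGAATCAtactgttggtg
PLAUR: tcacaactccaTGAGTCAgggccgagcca
SERPINB2: gagtaaaatgtTGAATCActcaaaggaca
TIMP1: tggtgggtggaTGAGTAAtgcatccagga

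Longer windows are shown for SERPINB2 and MMP10, which were almost silent without Coptidis Rhizoma 210 ug/mL, and for TIMP3, which was lower with it. They cover chr18:63887455-63887694 (plus), chr11:102780639-102780878 (minus) and chr22:32801455-32801694 (plus), and capitals again mark TGANTCA and TGAGTAA. A match is a run of letters in the genome and no measure of binding.
SERPINB2: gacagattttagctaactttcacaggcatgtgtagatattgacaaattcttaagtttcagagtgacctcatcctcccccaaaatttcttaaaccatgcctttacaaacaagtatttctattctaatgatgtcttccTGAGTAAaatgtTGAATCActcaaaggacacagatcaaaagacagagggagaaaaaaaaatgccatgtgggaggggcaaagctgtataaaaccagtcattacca
MMP10: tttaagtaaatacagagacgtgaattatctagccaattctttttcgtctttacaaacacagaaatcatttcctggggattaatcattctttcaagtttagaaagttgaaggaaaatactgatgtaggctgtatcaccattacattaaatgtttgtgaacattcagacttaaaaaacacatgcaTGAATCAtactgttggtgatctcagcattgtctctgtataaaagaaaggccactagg
TIMP3: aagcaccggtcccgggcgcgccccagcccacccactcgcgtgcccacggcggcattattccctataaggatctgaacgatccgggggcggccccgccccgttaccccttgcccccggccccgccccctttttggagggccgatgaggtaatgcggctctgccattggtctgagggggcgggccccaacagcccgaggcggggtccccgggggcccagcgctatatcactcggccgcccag

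MMP3, stromelysin-1, ranged over 6.93 on the log2 CPM scale between its highest and lowest group. CPM is a count scaled by the total of its library, after that total is multiplied by a scaling factor (TMM). The factor was 0.9085 to 0.9489 in the Coptidis Rhizoma libraries and 1.018 to 1.03 in the vehicle libraries. Small differences between these groups therefore depend on the scaling. The log2 scale here has a prior count of 2. On that scale SERPINB2 came next with 5.69 among the 8 genes that passed the filter, but its low end is set by the prior count, so the order of these ranges is not fixed. MMP3 stood at 128.5, 117.1 and 114.2 CPM in the Coptidis Rhizoma 210 ug/mL libraries, against 1.27, 1.33 and 1.12 CPM in the vehicle libraries. The groups lay far apart, and the fitted log2 difference was 6.59 (SE 0.109), a 96.6-fold ratio. In bulk libraries, more cells that make a transcript and more transcript per cell cannot be told apart. Scutellariae Radix 500 ug/mL gave 39.1, 37.6 and 44.1 CPM, again above every vehicle library, with a log2 difference of 5.01 (SE 0.115).

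Both gingers stood above vehicle for MMP3, and fresh above dried. Fresh ginger 500 ug/mL gave 10.8, 11.46 and 13.02 CPM, a log2 difference of 3.24 (SE 0.132) from vehicle. Dried ginger 500 ug/mL gave 7.11, 6.08 and 7.10 CPM, a log2 difference of 2.44 (SE 0.143), or 2.40 without replicate 1, which stood apart. The 3 fresh libraries lay above the 3 dried ones, with a log2 difference of 0.80 (SE 0.0968), or 0.84 without that dried library.

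Over the doses, MMP3 was not above vehicle at the lowest dose of any extract. With Coptidis Rhizoma it averaged 1.31, 2.14 and 119.9 CPM at 8.4, 42 and 210 ug/mL. With Scutellariae Radix it averaged 0.978, 1.36 and 40.25 CPM at 20, 100 and 500 ug/mL. It was under vehicle in every library at 20 ug/mL, overlapped it at 100 ug/mL and was above it at 500 ug/mL. At 20 ug/mL the log2 difference was -0.35 (SE 0.211), so no clear difference is shown there. Fresh ginger averaged 1.04, 2.01 and 11.75 CPM and dried ginger 1.01, 1.35 and 6.76 CPM at the same doses. At 100 ug/mL the fresh ginger libraries lay above vehicle and the dried ginger libraries overlapped it. Every Pinelliae Tuber and Zizyphi Fructus group overlapped vehicle. Wortmannin gave 1.04, 0.921 and 0.786 CPM, lower than the 3 vehicle libraries, with a log2 difference of -0.45 (SE 0.213).

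In the order of the 20 groups for MMP3, the first 4 places went to Coptidis Rhizoma 210, Scutellariae Radix 500, fresh ginger 500 and dried ginger 500 ug/mL, and no neighbours among them overlapped. Coptidis Rhizoma 42 ug/mL and fresh ginger 100 ug/mL came next and overlapped each other. From the seventh place to the last, every pair of neighbours overlapped, vehicle in the thirteenth place included.

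MMP1, interstitial collagenase, and MMP10, stromelysin-2, were scarce, yet both had their highest level in the same group as MMP3. MMP1 had 28, 35 and 24 counts in the Coptidis Rhizoma 210 ug/mL libraries, against 2, 1 and 2 counts in the vehicle libraries. The ranges did not overlap, at 1.14 ± 0.216 CPM against 0.0651 CPM in vehicle, and the log2 difference was 4.04 (SE 0.503). Without vehicle replicate 2 it was 3.77. Scutellariae Radix 500 ug/mL followed with 8, 9 and 8 counts and a log2 difference of 2.31 (SE 0.615). Dried ginger 500 ug/mL had 4, 5 and 4 counts and fresh ginger 500 ug/mL 2, 3 and 3 counts, both above vehicle in CPM but within a few reads of it.

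MMP10 had 8, 12 and 10 counts in the Coptidis Rhizoma 210 ug/mL libraries and no count in any vehicle library. Against a floor of 3 counts over the vehicle group, it was at least 10.1-fold higher. In the Coptidis Rhizoma 210 ug/mL libraries MMP3 had 9205 counts against 30 for MMP10. As stretches of these transcripts are alike, the part of MMP3 reads in the MMP10 counts cannot be told and was not tested. Wortmannin and Scutellariae Radix 500 ug/mL had 4 MMP10 counts each over 3 libraries, and no other group had more than 3. Per kb of exon, MMP1 and MMP10 remained far below MMP3 with Coptidis Rhizoma 210 ug/mL: MMP3 was at 58.5, MMP1 at 0.576 and MMP10 at 0.224 CPM per kb.

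TIMP1, a secreted inhibitor of most metalloproteinases, started from a much higher base. At the top doses of Coptidis Rhizoma, Scutellariae Radix, fresh ginger and dried ginger its order was that of MMP3. It stood at 300.8, 301.9 and 290.3 CPM in the Coptidis Rhizoma 210 ug/mL libraries, against 29.2, 29.02 and 28.4 CPM in the vehicle libraries. The vehicle libraries lay close together, and the log2 difference was 3.37 (SE 0.0612), a 10.3-fold ratio. Levels averaged 89.6 ± 2.83 CPM with Scutellariae Radix 500 ug/mL, 81.6 ± 0.39 CPM with fresh ginger 500 ug/mL and 66.9 ± 5.42 CPM with dried ginger 500 ug/mL (SD, n = 3 each). No library of these groups overlapped vehicle. The log2 differences were 1.63, 1.497 and 1.21 in that order, the last 1.15 without dried replicate 1.

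TIMP1 lay above the vehicle range at lower doses than MMP3 with Coptidis Rhizoma and dried ginger, and at the same dose with fresh ginger and Scutellariae Radix. Coptidis Rhizoma gave 35.3, 67.9 and 297.7 CPM at 8.4, 42 and 210 ug/mL, above vehicle in every library on TMM-scaled totals. At 8.4 ug/mL this depends on the scaling. Both gingers did so from 100 ug/mL, at 37.4 CPM with fresh and 36.7 CPM with dried ginger, which overlapped each other. At 500 ug/mL the fresh libraries lay above the dried ones, with a log2 difference of 0.29 (SE 0.0577), or 0.34 without dried replicate 1. With Scutellariae Radix the 20 and 100 ug/mL groups averaged 26.01 and 27.95 CPM, the first under vehicle in every library and the second overlapping it. Zizyphi Fructus 20 and 500 ug/mL also lay above vehicle, at 32.1 and 31.7 CPM. Their log2 differences were 0.15 (SE 0.0673) and 0.13 (SE 0.0664), and that of Scutellariae Radix 20 ug/mL was -0.15 (SE 0.0689), so no clear difference is shown.

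TIMP3, an inhibitor bound to the matrix that also blocks ADAM17 and the aggrecanases, ran the other way with Coptidis and Scutellariae. It stood at 97.7, 93.5 and 93.9 CPM in the Coptidis Rhizoma 210 ug/mL libraries, against 167.2, 162.2 and 162.9 CPM in the vehicle libraries. The libraries did not overlap, and the log2 difference was -0.79 (SE 0.0367). The level was lower at each higher dose, at 143.0, 118.9 and 95.1 CPM over the 3 rising doses. Scutellariae Radix gave 168.0, 153.2 and 133.7 CPM, lower than all vehicle libraries from 100 ug/mL. The log2 difference was -0.10 (SE 0.0358) at 100 ug/mL and -0.30 (SE 0.0361) at 500 ug/mL.

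The other treatments had higher TIMP3. Means were 201.5 CPM with fresh ginger, 198.4 CPM with Pinelliae Tuber, 198.2 CPM with dried ginger and 191.1 CPM with Zizyphi Fructus, each at 500 ug/mL, and 182.2 CPM with wortmannin. Every library of these 5 groups lay above the vehicle libraries, with log2 differences of 0.15 to 0.30. Neighbours among the 4 extracts overlapped, whereas the wortmannin libraries lay under those of Zizyphi Fructus 500 ug/mL. Both gingers at 100 ug/mL also lay above vehicle, at 189.5 and 179.2 CPM. Pinelliae Tuber 20 and 100 and Zizyphi Fructus 20 ug/mL lay under it, at 157.9, 158.2 and 155.5 CPM. Their log2 differences were -0.06 (SE 0.0398), -0.05 (SE 0.0358) and -0.08 (SE 0.0358), so no clear difference is shown. Dried ginger 500 ug/mL had a log2 difference of 0.27, or 0.31 without replicate 1.

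Per kb of exon, TIMP1 and TIMP3 changed places between treatments. TIMP1 was at 193 and TIMP3 at 20.7 CPM per kb with Coptidis Rhizoma 210 ug/mL, against 18.7 and 35.7 CPM per kb in vehicle. With Scutellariae Radix 500 ug/mL they were at 58.2 and 29 CPM per kb, with fresh ginger 500 ug/mL at 53.0 and 43.8, and with dried ginger 500 ug/mL at 43.4 and 43.1. MMP3 was under TIMP1 in each of these groups, at 58.5 CPM per kb with Coptidis Rhizoma 210 ug/mL and 0.606 in vehicle.

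**Figure D1:**
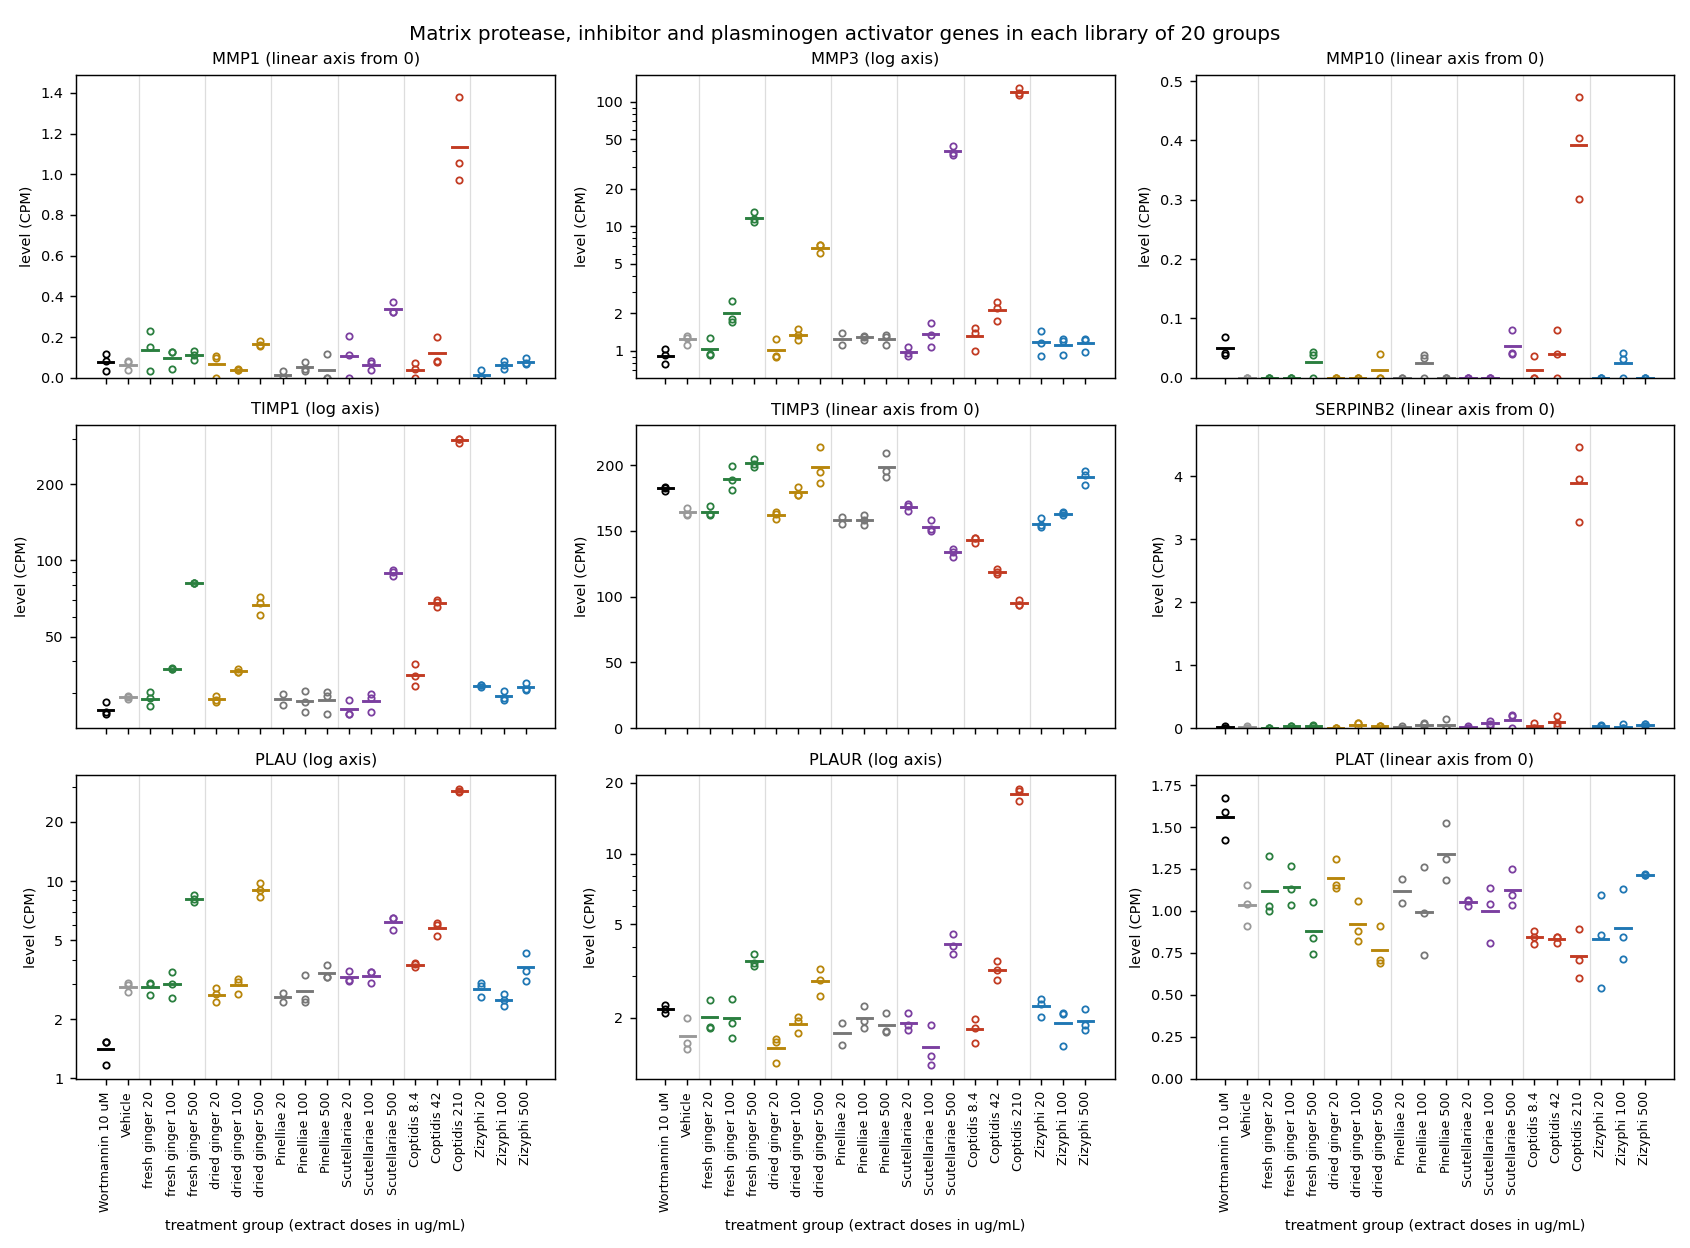
Level in CPM (vertical axis, log or linear as each panel says) of the 9 genes in every library (open circles) of the 20 groups, with group means as bars; the horizontal axis gives wortmannin, vehicle and each extract from its low to its high dose in ug/mL. MMP3, TIMP1, PLAU, PLAUR, MMP1, MMP10 and SERPINB2 have their highest circles in Coptidis Rhizoma 210 ug/mL, where TIMP3 has its lowest, between 93.5 and 97.7 CPM.

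PLAU, the urokinase gene, was highest with Coptidis Rhizoma and lowest with wortmannin. It stood at 29.2, 28.6 and 28.1 CPM in the Coptidis Rhizoma 210 ug/mL libraries, against 2.74, 2.96 and 3.04 CPM in the vehicle libraries. These ranges were far apart, with a log2 difference of 3.30 (SE 0.0944). Dried ginger 500 ug/mL gave 8.29, 9.02 and 9.73 CPM and fresh ginger 500 ug/mL 8.49, 7.83 and 8.13 CPM. The gingers overlapped each other and both lay above vehicle, with log2 differences of 1.63 and 1.48. Scutellariae Radix 500 ug/mL came after both gingers, at 6.20 CPM and a log2 difference of 1.09 (SE 0.108), whereas for MMP3 it came before them.

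With Coptidis Rhizoma, PLAU averaged 3.76, 5.79 and 28.6 CPM at 8.4, 42 and 210 ug/mL, and every library lay above vehicle. The 20 and 100 ug/mL ginger libraries overlapped vehicle, while Zizyphi Fructus and Pinelliae Tuber at 500 ug/mL lay just above it, at 3.66 and 3.42 CPM. Zizyphi Fructus 100 and Pinelliae Tuber 20 ug/mL lay under it, at 2.51 and 2.59 CPM. Their log2 differences were -0.22 (SE 0.123) and -0.17 (SE 0.133), so no clear difference is shown. Wortmannin gave 1.54, 1.17 and 1.54 CPM, lower than each vehicle library by a wide margin, with a log2 difference of -1.03 (SE 0.138). This was the lowest PLAU level of the 20 groups, and no neighbour overlapped it.

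PLAUR, the urokinase receptor gene, had 18.8, 18.5 and 16.7 CPM in the Coptidis Rhizoma 210 ug/mL libraries, against 1.47, 1.56 and 2.00 CPM in the vehicle libraries. The log2 difference was 3.42 (SE 0.123), close in size to that of PLAU. Scutellariae Radix 500 ug/mL averaged 4.11 CPM, fresh ginger 500 ug/mL 3.49 CPM and dried ginger 500 ug/mL 2.86 CPM. All libraries of these 3 groups lay above vehicle, with log2 differences of 1.295, 1.06 and 0.77, the last 0.76 without dried replicate 1. Wortmannin averaged 2.18 CPM, narrowly above the 3 vehicle libraries, with a log2 difference of 0.39 (SE 0.155). Zizyphi Fructus 20 ug/mL lay above them too, at 2.23 CPM, with a log2 difference of 0.42 (SE 0.155). Vehicle was in place 18 of the 20 groups for PLAUR, so most treatments had a higher mean.

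PLAT, the tissue-type activator gene, at chr8:42175233-42207724 (minus), had low levels and a narrow range, 1.03 on the log2 CPM scale. Wortmannin gave its highest level, 1.42, 1.59 and 1.67 CPM, against 1.16, 0.912 and 1.04 CPM in the vehicle libraries. These did not overlap, with a log2 difference of 0.59 (SE 0.179). Coptidis Rhizoma 210 ug/mL gave its lowest, 0.603, 0.710 and 0.890 CPM, just under the vehicle libraries, with a log2 difference of -0.50 (SE 0.205). In the order of the 20 groups for PLAT, every pair of neighbours overlapped.

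SERPINB2, which encodes PAI-2, was detected at more than a few counts in 1 group. It had 105, 113 and 81 counts in the Coptidis Rhizoma 210 ug/mL libraries, or 3.96, 4.46 and 3.28 CPM, against 0, 1 and 0 counts in the vehicle libraries. With a single vehicle count, the ratio of 301 has a 95% counting interval of 53.7 to 11900. Scutellariae Radix 500 ug/mL had 5, 0 and 5 counts, so its libraries overlapped vehicle, with a ratio of 10.5 and an interval of 1.49 to 455. Coptidis Rhizoma 42 ug/mL had 5, 2 and 1 counts. These intervals cover counting error only.

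**Figure D2:**
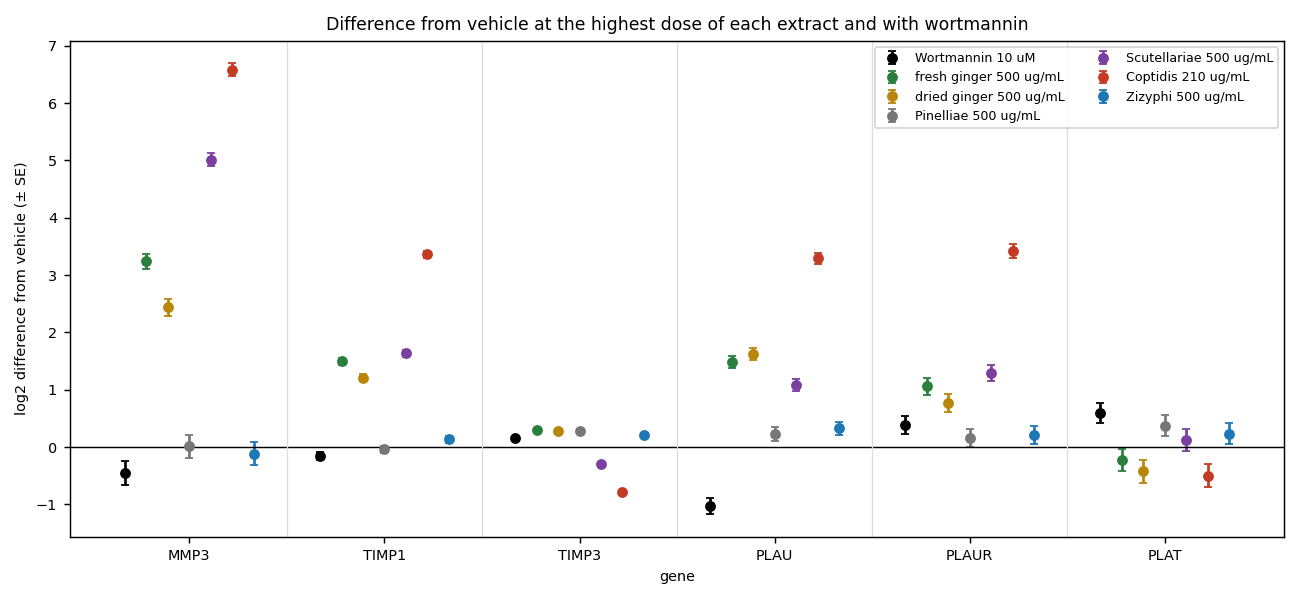
Fitted log2 difference from vehicle (vertical axis, points with standard errors) for 6 genes with enough counts (horizontal axis), with wortmannin and the top dose of each extract in colours. MMP3 reaches 6.59 with Coptidis Rhizoma 210 ug/mL, TIMP3 is at -0.79 there, and PLAU is at -1.03 with wortmannin.

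With Coptidis Rhizoma, TIMP1, PLAU and TIMP3 differed from vehicle at 8.4 ug/mL in every library on TMM-scaled totals. The log2 differences were 0.29, 0.37 and -0.20, while MMP3 and PLAUR overlapped vehicle there. With Scutellariae Radix, MMP3, TIMP1 and PLAUR overlapped vehicle at 100 ug/mL and exceeded it at 500 ug/mL. PLAU lay narrowly above every vehicle library at 20 and 100 ug/mL, at 3.25 and 3.32 CPM. Its log2 differences there were 0.16 (SE 0.119) and 0.19 (SE 0.118), so no clear difference is shown at these doses. The top dose against the bottom dose, which share the title number, gave log2 differences for MMP3 of 6.51 (SE 0.11) with Coptidis Rhizoma and 5.36 (SE 0.12) with Scutellariae Radix. It was 3.48 (SE 0.134) with fresh ginger and 2.75 (SE 0.147) with dried ginger. For TIMP1 the same differences were 3.07, 1.78, 1.51 and 1.23, and for PLAU 2.92, 0.93, 1.49 and 1.75.

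**Figure D3:**
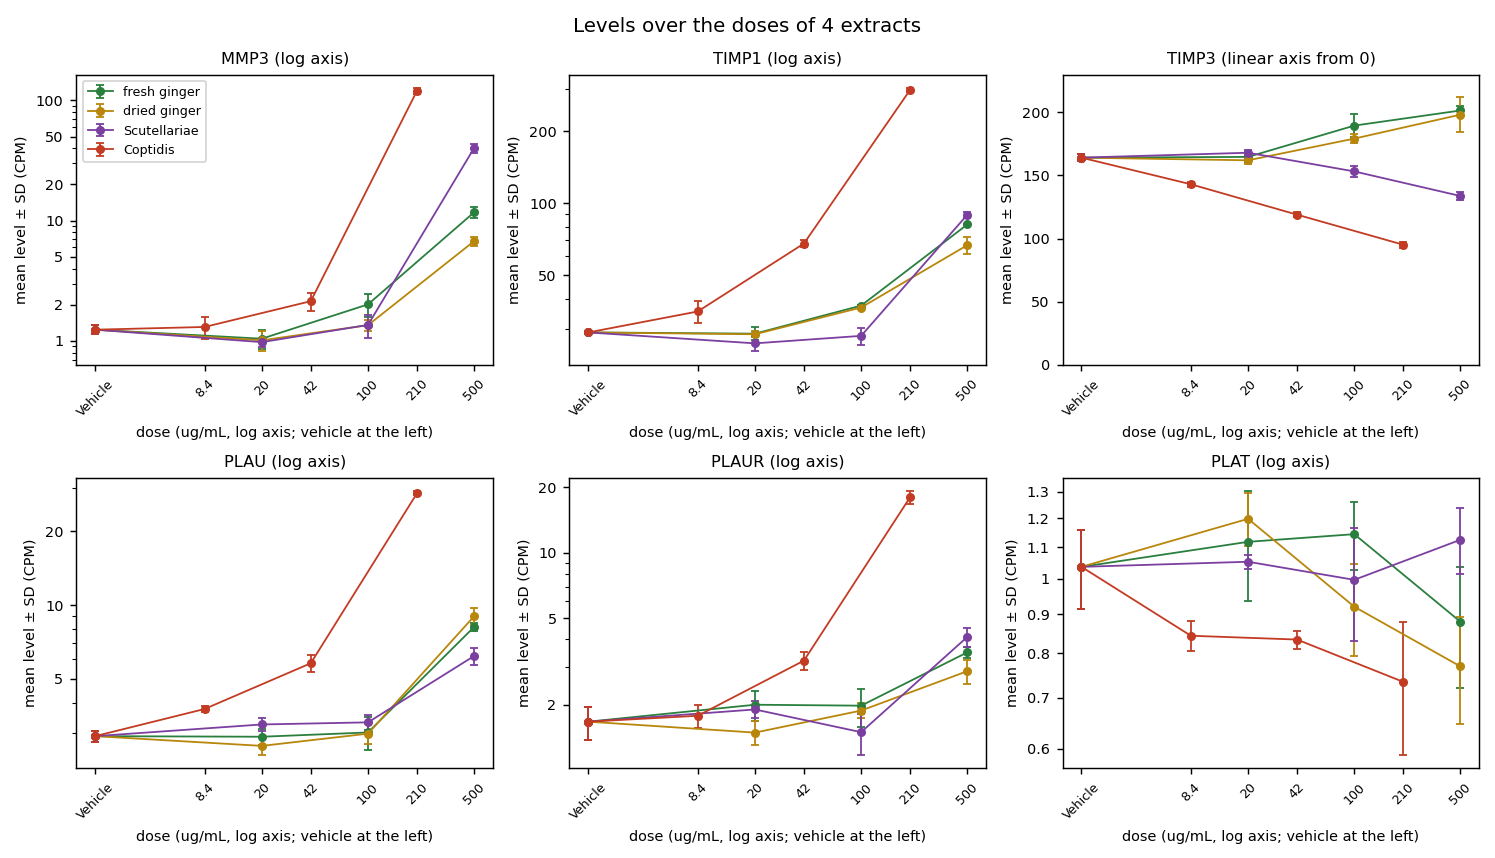
Mean level ± SD in CPM (vertical axis, log except for TIMP3) of 6 of the genes over the doses of 4 extracts in ug/mL (log horizontal axis, vehicle at the left end of each line). TIMP3 falls in steps to 95.1 CPM over the Coptidis doses, and PLAU is at 3.02 CPM with fresh ginger 100 ug/mL and 8.15 CPM with fresh ginger 500 ug/mL.

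Counts of these genes past the threshold (adjusted p under 0.05 in edgeR's quasi-likelihood test) are given beside the share of all 16641 tested genes, and nothing is read from them, since the genes were chosen on these contrasts. With Coptidis Rhizoma 210 ug/mL 6 of 8 were higher and 1 lower, beside 34.8% and 34.5% of all genes. With Scutellariae Radix 500 ug/mL 6 were higher and 1 lower, beside 24.7% and 25.5%. Both gingers at 500 ug/mL had 5 higher and 0 lower, beside 23.5% and 22.5% with fresh and 21.5% and 20.9% with dried ginger. Wortmannin had 2 higher (TIMP3 and PLAT) and 1 lower (PLAU), beside 16.2% and 16%. Pinelliae Tuber and Zizyphi Fructus at 500 ug/mL had 1 higher each (TIMP3), beside 2.64% and 2.09%, and 0 lower, beside 1.93% and 1.53%. Fresh against dried ginger at 500 ug/mL had 2 higher (MMP3 and TIMP1) and 0 lower, beside 0.961% and 0.871%. The median log2 difference of all genes was within 0.017 of 0 in each of these 8 comparisons. Libraries did not overlap vehicle for 72.9% of all tested genes with Coptidis Rhizoma 210 ug/mL and 60% with Scutellariae Radix 500 ug/mL. At 500 ug/mL the shares were 55.7% with fresh ginger, 49.6% with dried ginger, 27.6% with Zizyphi Fructus and 23.1% with Pinelliae Tuber. With wortmannin it was 48.5%, and between fresh and dried ginger at 500 ug/mL 14.7%. These shares were not computed for the lower doses. Libraries above or under vehicle at those doses are a description, and nothing is read from them.

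Over the 20 group means of log2 CPM, TIMP1 had Pearson correlations of 0.951 with MMP3, 0.951 with PLAUR and 0.944 with PLAU. These points share the vehicle-like groups and 1 extreme group, so the values describe the layout of the groups. TIMP3 was negatively related to MMP1, MMP3, TIMP1, PLAU, PLAUR and SERPINB2, from -0.509 with MMP3 to -0.734 with SERPINB2, and stood at 0.445 with PLAT. By the same measure, the genes nearest to MMP3 were TOMM34 (0.986), PLK2 (0.984) and SFN (0.982), and those nearest to TIMP1 were S100A11, SH3BGRL3 and HPCAL1 (all 0.993). PLAU had IGFL4 (0.976), LINC02313 (0.973) and ITGA6 (0.971), and PLAUR had CTSL (0.982), PPARD (0.974) and CD59 (0.973). TIMP3 had GCNT1 (0.947) and DNAJC3 (0.938). SERPINB2 had SMARCD1 (0.972), C5AR2 (0.969) and CD93 (0.962), MMP1 had WASF2 (0.944), TNFRSF25 (0.940) and ELL (0.937), and PLAT had AHDC1 (0.860), PGAP1 (0.847) and ATP2B4 (0.836).

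The rest of the system was followed through 67 genes in 4 lists by role, of which 46 were tested. With Coptidis Rhizoma 210 ug/mL 21 rose and 15 fell, with Scutellariae Radix 500 ug/mL 18 and 13, with fresh ginger 500 ug/mL 19 and 9, with dried ginger 500 ug/mL 17 and 9 and with wortmannin 18 and 5. Pinelliae Tuber 500 ug/mL had 3 that rose, Zizyphi Fructus 500 ug/mL 2, and fresh against dried ginger 3 that were higher and 1 lower. Of all tested genes, 34.8% rose and 34.5% fell with Coptidis Rhizoma 210 ug/mL, 24.7% and 25.5% with Scutellariae Radix, 23.5% and 22.5% with fresh ginger, 21.5% and 20.9% with dried ginger and 16.2% and 16% with wortmannin. As a share of the 46, the lists' genes rose more often than all genes in these 5 comparisons. The counts that fell lay closer to the shares of all genes. The lists were chosen with earlier results of these data known, so nothing is read from this. The medians of the lists' 46 genes were 0.33, 0.19, 0.19, 0.14 and 0.23 on the log2 scale in the first 5 of these comparisons, beside medians of all genes under 0.017 in size.

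**Figure D4:**
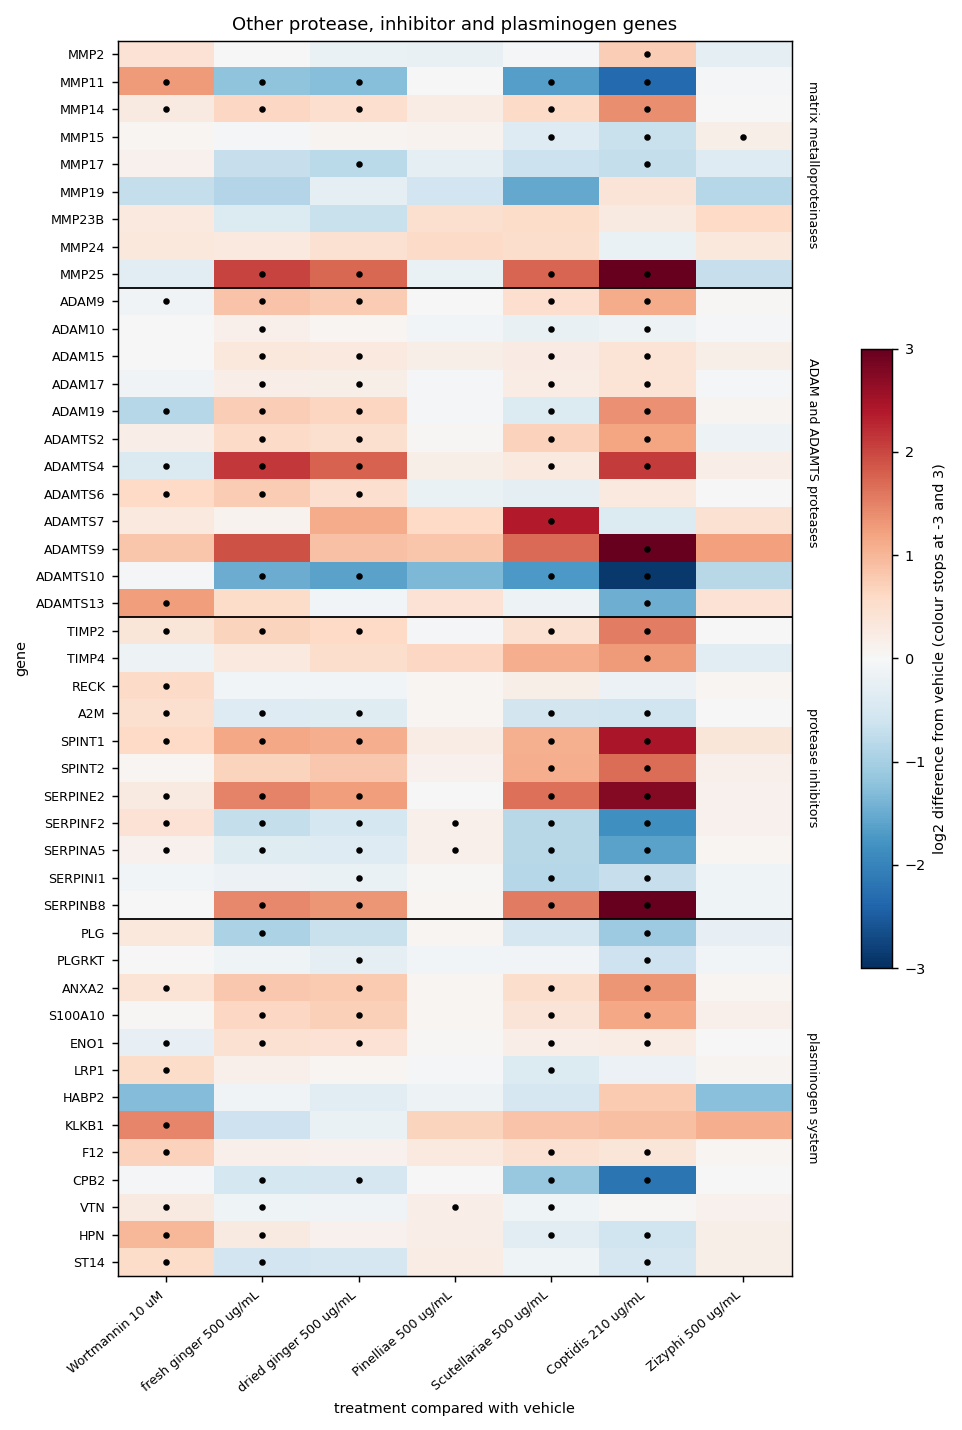
Fitted log2 difference from vehicle (colour, stopping at -3 and 3) of 45 of the 46 tested genes of 4 lists (rows) in 7 comparisons (columns), with a dot where the adjusted p was under 0.05; genes with a few counts, such as ADAMTS9 and ADAMTS10, have wide errors. MMP11 is at 1.28 with wortmannin and -2.33 with Coptidis Rhizoma 210 ug/mL.

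Among the inhibitors, 7 of 12 rose and 4 fell with Coptidis Rhizoma 210 ug/mL, beside 34.8% and 34.5% of all tested genes. SERPINE2, protease nexin-1, was at 181 against 26.9 CPM in vehicle (log2 difference 2.75), and SERPINB8, an intracellular serpin, at 15.0 against 1.78 CPM (3.08). Both also rose with both gingers and Scutellariae Radix at 500 ug/mL, by 1.25 to 1.65. With wortmannin RECK, a membrane-anchored inhibitor of metalloproteinases, and SPINT1, an inhibitor of serine proteases at the cell surface, rose by 0.57 and 0.60, and SPINT1 also rose with both gingers, Scutellariae Radix and Coptidis Rhizoma, by 1.07 to 2.46.

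Of 20 other metalloproteinase genes, 9 were tested. With Coptidis Rhizoma 210 ug/mL 3 rose and 3 fell, beside 34.8% and 34.5% of all tested genes. MMP11, stromelysin-3, fell with Coptidis Rhizoma 210 ug/mL to 1.98 ± 0.33 CPM, against 10.0 ± 0.208 CPM in vehicle (log2 difference -2.33, adjusted p 1.01e-23). It also fell with Scutellariae Radix (-1.65), dried ginger (-1.27) and fresh ginger (to 4.35 CPM), and it rose with wortmannin (1.28). MMP14, a membrane-type enzyme, rose with Coptidis Rhizoma 210 ug/mL (1.40), with fresh ginger (0.61), Scutellariae Radix (0.58) and dried ginger (0.50) at 500 ug/mL, and with wortmannin (0.27). MMP25, another membrane-type enzyme, rose with the same 4 extracts on few counts, at 168 counts with Coptidis Rhizoma 210 ug/mL against 10 counts in vehicle (4.03). Its calls with Scutellariae Radix and dried ginger did not hold without single libraries, at an adjusted p of up to 0.166.

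In the ADAM and ADAMTS list, 7 of 12 tested genes rose and 3 fell with Coptidis Rhizoma 210 ug/mL. The shares of all tested genes were 34.8% and 34.5% in that group. ADAMTS4, an aggrecanase that TIMP3 inhibits, rose by 2.11 there, by 2.12 with fresh ginger 500 ug/mL and by 1.78 with dried ginger 500 ug/mL. ADAM9 rose by 1.11, 0.85 and 0.75 in the same groups, and ADAMTS7 with Scutellariae Radix 500 ug/mL by 2.38. ADAMTS9 had 40 counts with Coptidis Rhizoma 210 ug/mL against 2 in vehicle, a ratio of 20.2 with a 95% counting interval of 5.23 to 172. ADAMTS10 had 3 against 25 counts, a ratio of 0.121 (0.0234 to 0.396). With wortmannin ADAMTS13 and ADAMTS6 rose by 1.26 and 0.59 and ADAM19 fell by 0.86.

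In the plasminogen list, 4 of 13 tested genes rose and 5 fell with Coptidis Rhizoma 210 ug/mL. The shares of all tested genes were 34.8% and 34.5%. ANXA2 and S100A10, which together form a plasminogen receptor at the cell surface, rose by 1.32 and 1.16. CPB2, whose product removes plasminogen binding sites from fibrin, fell to 15.9 CPM against 72.2 CPM in vehicle (-2.19). CPB2 also fell with Scutellariae Radix (-1.13), fresh ginger (-0.52) and dried ginger (-0.51), and ANXA2 rose with Scutellariae Radix and both gingers by 0.53 to 0.80. PLG, plasminogen itself, fell with Coptidis Rhizoma 210 ug/mL (-1.09, adjusted p 0.00234) and was at 0.432 CPM with fresh ginger 500 ug/mL against 0.843 CPM in vehicle (-0.96, adjusted p 0.0115), and not past the threshold without extract replicate 1 (adjusted p 0.0696). With wortmannin HPN (hepsin, a membrane serine protease), F12 (factor XII) and KLKB1 (plasma prekallikrein) rose by 1.00, 0.70 and 1.47, and the KLKB1 call did not hold without wortmannin replicate 1 (adjusted p 0.0726) or vehicle replicate 1 (0.0653).

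Genes for substrates of these proteases moved in both directions, as all tested genes did. Of 28 matrix and adhesion genes, 21 were tested. With Coptidis Rhizoma 210 ug/mL 10 rose and 9 fell, beside 34.8% and 34.5% of all tested genes. COL6A2 rose by 2.20 and COL5A2 fell by 2.10 on the log2 scale. With Scutellariae Radix 500 ug/mL 5 rose and 8 fell, with fresh ginger 7 and 7 and with dried ginger 6 and 5. The shares of all tested genes were 24.7% and 25.5%, 23.5% and 22.5%, and 21.5% and 20.9% in that order. LAMA3 rose by 0.94 and COL1A1 fell by 1.84 with Scutellariae Radix, and SPP1 (osteopontin) rose by 1.23 with Coptidis Rhizoma, 0.92 with Scutellariae Radix, 0.87 with fresh ginger and 0.73 with dried ginger.

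Of 17 AP-1 and ETS factor genes, a list of factors known to act on promoters of this system that was drawn up with earlier results of these data known, 16 were tested. With Coptidis Rhizoma 210 ug/mL 15 rose and 0 fell, with dried ginger 500 ug/mL 14 and 0, with fresh ginger 500 ug/mL 12 and 1, with Scutellariae Radix 500 ug/mL 12 and 2 and with wortmannin 1 and 6. The shares of all genes were 34.8% and 34.5% with Coptidis Rhizoma, 21.5% and 20.9% with dried ginger, 23.5% and 22.5% with fresh ginger, 24.7% and 25.5% with Scutellariae Radix and 16.2% and 16% with wortmannin. FOS was at 62.7 ± 9.01 CPM with Coptidis Rhizoma 210 ug/mL, against 0.633 ± 0.106 CPM in vehicle (log2 difference 6.62, adjusted p 2.65e-35), and ETS1 was at 10.7 against 0.402 CPM (4.72). FOS rose by 4.30 with fresh ginger, 4.15 with dried ginger and 3.84 with Scutellariae Radix. FOSL1 fell by 0.85 with wortmannin. That these factors act on the 9 genes here was not tested.

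Hepatocyte markers moved with the same treatments. The 8 markers summed to 22900 to 23900 CPM with Coptidis Rhizoma 210 ug/mL, 27100 to 27900 with Scutellariae Radix 500 ug/mL, 34500 to 35600 with fresh ginger and 32800 to 37400 with dried ginger, against 40200 to 40800 CPM in vehicle. Wortmannin libraries were at 45600 to 46800 CPM. The 8 fibroblast and stellate cell markers summed to 57.3 to 61.7 CPM with Coptidis Rhizoma 210 ug/mL, 82.3 to 90 CPM with Scutellariae Radix 500 ug/mL, 50.9 to 54.3 CPM with fresh ginger, 49.8 to 52.4 CPM with dried ginger and 64.5 to 67.7 CPM with wortmannin, against 59.2 to 63.4 CPM in vehicle, with a DCN count in 1 library of 59. The 6 macrophage markers, nearly all of it LYZ and CD68, summed to 1090 to 1180 CPM with Coptidis Rhizoma 210 ug/mL, 1790 to 1970 CPM with Scutellariae Radix 500 ug/mL, 2460 to 2700 CPM with fresh ginger 500 ug/mL, 2650 to 2710 CPM with dried ginger 500 ug/mL and 1770 to 1870 CPM with wortmannin, against 1400 to 1410 CPM in vehicle. The 6 endothelial markers summed to 2.9 to 3.19 CPM with Coptidis Rhizoma 210 ug/mL, 2.79 to 3.31 CPM with Scutellariae Radix, 2.36 to 2.83 CPM with fresh ginger, 2.62 to 3.26 CPM with dried ginger and 3.62 to 4.23 CPM with wortmannin, against 3.16 to 4.97 CPM in vehicle. The part of these shifts in the levels of the 9 genes was not tested.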

How the data were processed

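RNA-seq of HepG2 cells was used as the authors deposited it, a table of RSEM expected counts per gene, so the values had been estimated and 24.44% of those above 0 were not whole. Among the tools in the submitters' processing notes are RSEM 1.3.3, STAR 2.7.3a, Trim Galore 0.6.5 and FastQC 0.11.9, with build hg38. The sources used here do not give the annotation release or the strand setting. The table has 208 further columns that were not used.

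Expected counts were rounded and 1 edgeR 4.0.16 quasi-likelihood model (R 4.3.3, TMM scaling, filterByExpr, Benjamini-Hochberg adjustment) was fitted over 20 group means and 59 libraries, testing 16641 genes with a threshold of 0.05 and 39 residual degrees of freedom. All comparisons with vehicle share its 3 libraries. Levels are CPM on TMM-scaled totals, divided by exon length (GENCODE 29) where genes are compared. Ratios against 1 to 3 counts have exact 95% intervals, and groups at 0 a floor of 3 counts. Likeness is Pearson's r over 20 group means of log2 CPM with a prior count of 2, and up to 3 of the nearest genes are named. In each list up to 3 called genes with the largest changes, over 0.5 on the log2 scale, were named by rule for each comparison. Values of those genes in further comparisons were added after they were seen. Replicate numbers did not pair libraries, with correlations of deviations from -0.036 to 0.0456. The model was tested on simulated data. The 9 genes and the lists were chosen with earlier results of these data known. Alternatives were run for wortmannin and the top doses only. They were RLE factors, DESeq2 1.42.0, no filter, the 2 groups alone, a replicate block, 3 libraries left out and each library of the compared groups left out. Some genes of the lists and of the nearest genes are not reported here.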

Additional observations from a re-analysis of the deposited data

How the results depend on the processing

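Of 654 recomputed log2 differences of MMP1, MMP3, TIMP1, TIMP3, PLAU, PLAUR and PLAT, 8 had another sign, in comparisons not past the threshold with all libraries. They cover wortmannin and the top doses against vehicle, and fresh against dried ginger at 500 ug/mL. Differences at lower doses and between doses were not recomputed. MMP10 and SERPINB2 have no recomputed values. The largest shift was 0.401, for MMP1 with wortmannin, which was at -0.19 without wortmannin replicate 1 and -0.05 without vehicle replicate 2, against 0.22 with all libraries. Counts of the 46 other protease and plasminogen genes called with Pinelliae Tuber 500 ug/mL were 5 with no filter on low counts, against 3. With Zizyphi Fructus 500 ug/mL they were 4 without the 3 libraries that stood apart and 7 with only the 2 groups, against 2. For fresh against dried ginger the count was 1 with only the 2 groups, against 4. Leaving out 1 library gave 33 to 35 for Coptidis Rhizoma, 27 to 31 for Scutellariae Radix, 25 to 30 for fresh ginger, 22 to 26 for dried ginger and 19 to 23 for wortmannin. It gave 1 to 6 for Pinelliae Tuber (1 without extract replicate 3 or vehicle replicate 1 or 2, 6 without extract replicate 2), 0 to 3 for Zizyphi Fructus (0 without extract replicate 3 or vehicle replicate 2) and 2 to 6 for fresh against dried ginger (2 without dried replicate 1, 6 without dried replicate 2). The cause was not tested. Over all genes, calls moved from 761 to between 201 and 1340 for Pinelliae Tuber, from 601 to between 182 and 1637 for Zizyphi Fructus and from 305 to between 29 and 605 for fresh against dried ginger. With the replicate block the counts were 36, 31, 28, 26, 23, 3, 2 and 4 for Coptidis, Scutellariae, fresh and dried ginger, wortmannin, Pinelliae, Zizyphi and fresh against dried ginger, as without it, and the numbers do not pair the libraries. Depth limits MMP10, MMP1 and SERPINB2, with few or no counts in vehicle.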
